A study of Bos taurus with 12 samples.

Results

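The gp130 cytokine pathway was followed through 9 genes picked by symbol from the 18436 genes of the deposited bovine table: the ligand LIF, the receptor chains LIFR, OSMR and IL6ST, the kinases JAK1 and JAK2, the transcription factor STAT3, and the inhibitors SOCS2 and SOCS3. Each symbol matched exactly 1 row of the expression table, and the m6A peaks of these genes were those carrying the same symbol in the peak lists. All 9 genes passed the filter on low expression, a mean of at least 0.5 FPKM (mapped fragments scaled to transcript length and library size), which 12302 genes passed in all.

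Cytokines of the interleukin-6 family signal through a shared receptor subunit, gp130, which is encoded by IL6ST. LIF binds LIFR, which pairs with gp130, and oncostatin M acts through OSMR paired with gp130. The receptors have no kinase activity of their own and rely on bound Janus kinases, which phosphorylate STAT3 so that it enters the nucleus. SOCS3 is induced by STAT3 and blocks gp130 and the kinases, whereas SOCS2 is best known as a brake on growth hormone receptor signalling through STAT5. In muscle, LIF is known as a growth factor of myoblasts, and JAK1 and JAK2 with STAT3 have been tied to the balance between proliferation and differentiation.

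The cells were primary myoblasts of Qinchuan cattle, isolated from longissimus dorsi muscle after birth, and the study's methods speak of a single calf. Proliferating myoblasts (GM) were taken at 80% confluence in medium with 20% fetal bovine serum. Myotubes (DM) were taken after 4 days in differentiation medium with 2% horse serum, by which time confluence was 100%. Each group had 3 input RNA libraries and 3 libraries from immunoprecipitation with an antibody to m6A (N6-methyladenosine, a methyl mark on mRNA), 12 samples in all. Medium, serum species, confluence and differentiation changed together between the groups and cannot be told apart. Since no label says that the replicates came from separate animals, p-values measure the spread between these cultures only.

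The 6 inputs were alike in breadth, with 16016 to 16289 genes above 0 FPKM, and correlations of log2(FPKM + 1) were 0.991 to 0.996 within groups and 0.964 to 0.967 between them. FPKM summed to 415740 to 434458 in GM and to 386436 to 390827 in DM. All 10 muscle markers passed the filter, and 4 rose and 4 fell, beside 16.1% and 26.7% of all tested genes. MYOG, MYH3, CKM and TNNT3 rose, and MYOD1, MYF5, PAX7 and ACTA1 fell. DES and MYMK were not called. ACTA1 held 87.3, 115 and 128 FPKM in the GM libraries and 76.9, 57.3 and 75.6 in the DM libraries (limma adjusted p = 0.011). MYH3, an embryonic myosin, already stood at 273 ± 2.74 FPKM in GM (mean ± SD, n = 3) and at 659 ± 15 in DM, while MYOD1 went from 61.6 ± 3.94 to 24.8 ± 1.17. Fibroblast markers other than TCF21 (mean 2.15 in GM and 1.68 in DM) were abundant too. The 7 genes together held 10284 to 10431 FPKM per library in GM and 11635 to 12199 in DM. Most of this was COL1A1 (6791 and 7420) and COL3A1 (2397 and 3135). Of the 7 markers, 3 rose and 1, TCF21, fell in the same test, beside 16.1% and 26.7% of all tested genes. Their part in the results below was not tested. Leukocyte, endothelial and adipocyte markers were low, with summed FPKM of at most 2.06, 0.653 and 1.81 per library. CD68 (mean 1.17 in GM and 1.47 in DM) and PLIN1 (0.870 and 0.985) passed the filter, and neither was called. Of those below it, VWF (0.0719 and 0.129) and FABP4 (0.106 and 0.578) lay higher in every DM library than in any GM library. CD14 (0.245 and 0.0928) and ADIPOQ (0.153 and 0.0109) lay lower. These low values carry no test, and the groups did not overlap in 54.1% of all tested genes. PTPRC, CD3E and KDR matched no row and were not analysed here. In bulk RNA, fewer cells of a type and less RNA per cell cannot be told apart.

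The genes for the core of the pathway were the most abundant of the 9. FPKM is a value per length, so levels of different genes can be ranked. In GM the order was STAT3, JAK1, IL6ST, OSMR, JAK2, SOCS3, SOCS2, LIF and LIFR, and the libraries of neighbours in this order overlapped only for IL6ST and OSMR. In DM the order was STAT3, JAK1, IL6ST, OSMR, JAK2, SOCS3, LIF, LIFR and SOCS2, with overlap only between OSMR and JAK2. STAT3 lay at the 88.8th percentile of mean level among the 12302 genes and JAK1 at the 82.9th. IL6ST was at the 70.8th, OSMR at the 58.4th and JAK2 at the 49.0th. SOCS3, LIF, SOCS2 and LIFR were low, at the 26.5th, 15.6th, 14.8th and 11.9th percentiles.

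**Figure D1:**
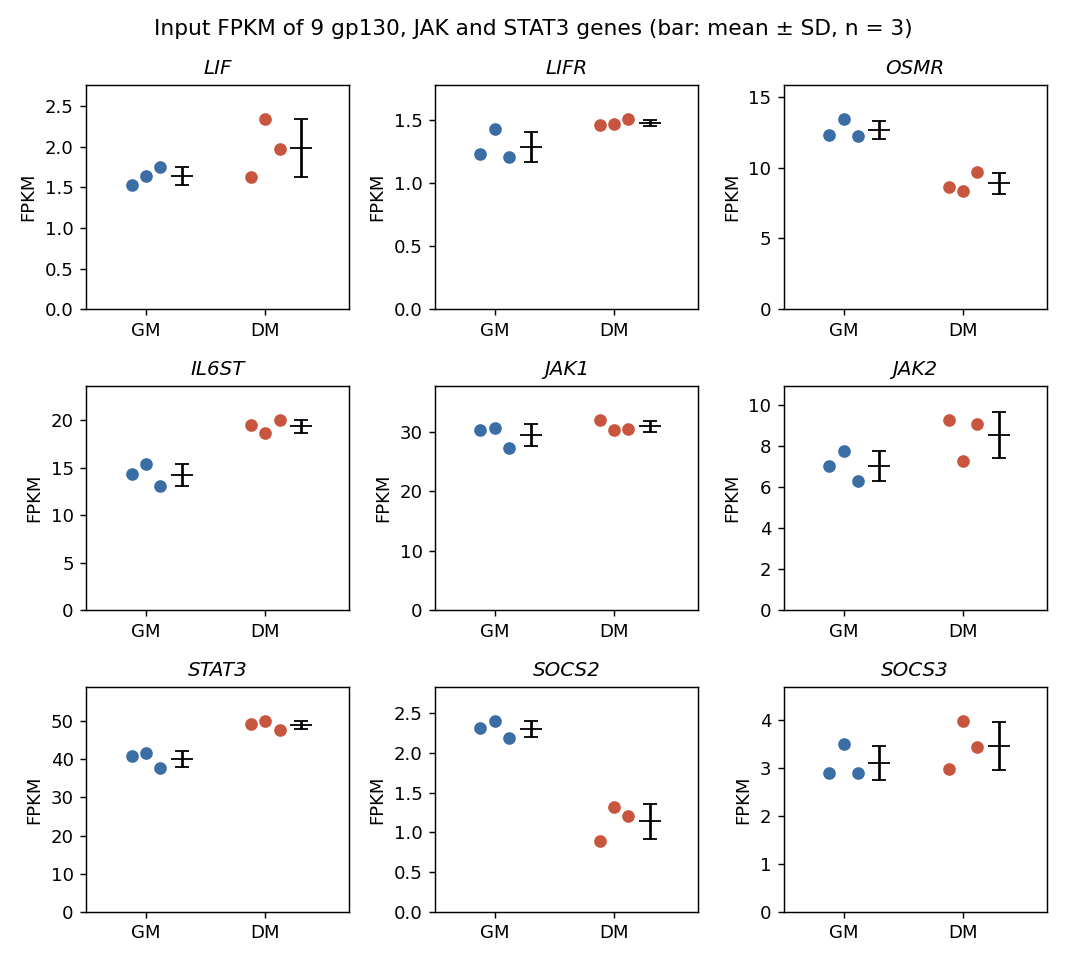
FPKM (y axes, from 0) of the 9 genes in the 3 GM and 3 DM input libraries, 1 point per library, with the mean and SD of each group at its right. The DM points lie above all GM points for IL6ST, STAT3 and, by a small gap, LIFR, and below all GM points for OSMR and SOCS2.

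Between myoblasts and myotubes, IL6ST and STAT3 rose and OSMR and SOCS2 fell. The other 5 genes did not pass the test, which was limma on log2(FPKM + 1) with Benjamini-Hochberg adjustment over all 12302 genes and a threshold of 0.05. The 4 of 9 genes called can be read against 42.8% of all tested genes. The 2 that rose stand beside 16.1% of all genes and the 2 that fell beside 26.7%. Under the study's cutoffs, a 1.5-fold change and p under 0.05 before adjustment, SOCS2 was called lower and no member higher, beside 11.9% of all genes (4.90% higher and 6.97% lower). The cutoffs were applied here to limma on log2(FPKM + 1), whereas the study used edgeR, so its calls can differ. In 5 of 9 genes the groups did not overlap, beside 54.1% of all genes. DM lay above GM in 3 of them, beside 21.1%, and below GM in 2, beside 33.0%. These shares are near those of all genes, so the counts are no result about the pathway. The median log2 fold change was 0.12 over the 9 genes and −0.05 over all tested genes.

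**Figure D2:**
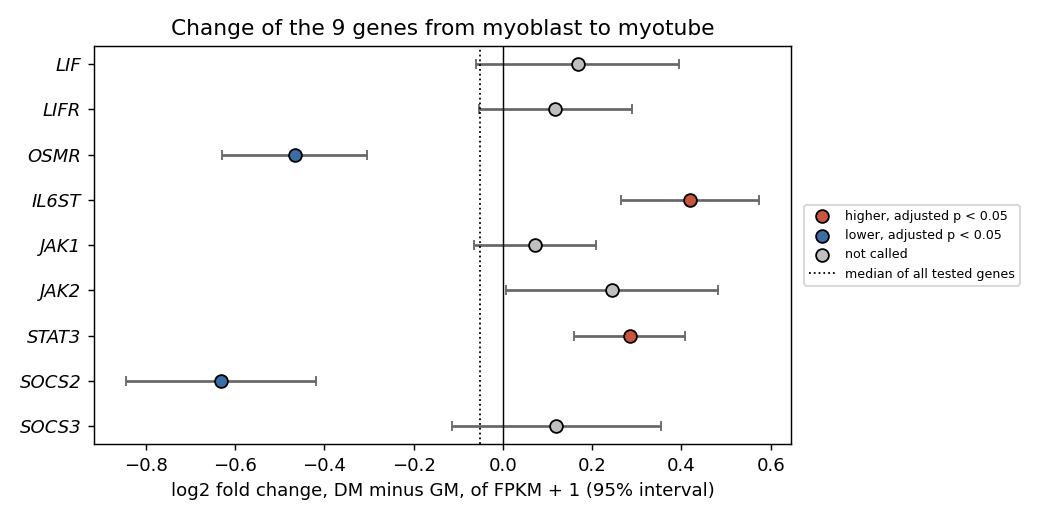
Log2 fold change of FPKM + 1 from GM to DM (x axis) for each of the 9 genes, with 95% intervals from limma, coloured by whether the adjusted p was under 0.05; the dotted line marks the median of all tested genes. IL6ST and STAT3 lie to the right of 0 and OSMR and SOCS2 to the left, and SOCS2 has the largest change of the 9, −0.63.

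The ligand LIF was low in both groups. It is encoded on chromosome 17 (chr17:69262954-69269513, minus strand, ARS-UCD1.2) and has 2 annotated transcripts. The GM libraries held 1.53, 1.64 and 1.75 FPKM and the DM libraries 1.63, 2.34 and 1.97. DM replicate 1 lay within the GM range, so the groups overlapped. The log2 fold change was 0.17 ± 0.10 (SE; 95% interval −0.06 to 0.39, limma adjusted p = 0.21).

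Its receptor chain LIFR (chr20:35840757-35949859, plus strand) was the least abundant of the 9 genes in GM. It measured 1.23, 1.42 and 1.2 FPKM in GM and 1.46, 1.47 and 1.51 in DM. Every DM library lay above every GM library by a narrow gap, and the test was not passed (log2 fold change 0.12, 95% interval −0.05 to 0.29, limma adjusted p = 0.24). An unnamed gene on the opposite strand, ENSBTAG00000052650, lies 80 bases away, at 1.44 FPKM in GM and 1.24 in DM.

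OSMR, the signalling chain for oncostatin M, fell. Its gene lies on the same chromosome as LIFR, 269 kb away and on the other strand (chr20:35521708-35571511). The GM libraries held 12.3, 13.4 and 12.3 FPKM and the DM libraries 8.65, 8.32 and 9.7. The groups were well apart, and the mean was 1.42-fold lower in DM (12.6 ± 0.664 to 8.89 ± 0.723, SD, n = 3 each). The log2 fold change was −0.47 ± 0.07 (SE, limma adjusted p = 0.0011).

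IL6ST, the shared gp130 subunit, moved the other way. This gene is also on chromosome 20 (chr20:23191785-23250938, plus strand), 12.3 Mb from OSMR. Its FPKM was 14.4, 15.4 and 13.1 in GM and 19.5, 18.7 and 20.0 in DM. Every DM library lay above every GM library. The mean was 1.36-fold higher in DM (14.3 ± 1.16 to 19.4 ± 0.676), with a log2 fold change of 0.42 ± 0.07 (SE, limma adjusted p = 0.0015).

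Of the kinases, JAK1 was the abundant one and stayed within its spread. It lies at chr3:80444566-80584006 (plus strand) and measured 30.3, 30.6 and 27.2 FPKM in GM and 31.9, 30.3 and 30.4 in DM. The groups overlapped, and the log2 fold change was 0.07 with a 95% interval of −0.06 to 0.21 (limma adjusted p = 0.37). The upper end of that interval lies below the estimate for IL6ST.

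JAK2 (chr8:39381277-39499024, minus strand) held 7.05, 7.78 and 6.31 FPKM in GM and 9.27, 7.26 and 9.11 in DM. DM replicate 2 lay inside the GM range and the other DM libraries above it. With a log2 fold change of 0.24 ± 0.10 (SE) JAK2 missed the threshold (limma adjusted p = 0.091). Without DM replicate 2 it passed (0.34, limma adjusted p = 0.021), and it also passed under another scaling, with an adjusted p of 0.035 for size factors and 0.034 for TPM.

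STAT3, the transcription factor at the end of the cascade, rose by a small and even step. It lies at chr19:42417949-42491771 on the minus strand, 1404 bases from STAT5A on the opposite strand. STAT3 read 41.0, 41.6 and 37.7 FPKM in the GM cultures and 49.2, 50.0 and 47.9 in the DM cultures. The groups did not overlap, and the mean was 1.22-fold higher in DM (40.1 ± 2.11 to 49.0 ± 1.07). The log2 fold change was 0.28 ± 0.05 (SE, limma adjusted p = 0.0035).

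SOCS2 showed the largest change of the 9 genes. It is a gene of 2 annotated transcripts at chr5:23367712-23380477 (plus strand). FPKM was 2.32, 2.40 and 2.19 in GM and 0.892, 1.32 and 1.2 in DM. All 3 DM libraries lay below all 3 GM libraries, and the mean was 2.02-fold lower in DM (2.30 ± 0.103 to 1.14 ± 0.221). Adding 1 to FPKM pulls such low values together, so the log2 fold change of −0.63 ± 0.09 (SE, limma adjusted p = 8.9e-04) understates the ratio. With an addition of 0.1 it was −0.97.

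SOCS3, the feedback inhibitor of gp130, did not follow SOCS2. Its annotated gene spans only 700 bases in 1 transcript (chr19:53840159-53840858, plus strand), so RNA outside this stretch does not enter its FPKM. SOCS3 read 2.89, 3.51 and 2.90 FPKM in the GM libraries, against 2.97, 3.97 and 3.44 in the DM libraries. The groups overlapped, and the log2 fold change was 0.12 (95% interval −0.11 to 0.35, limma adjusted p = 0.38).

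Ratios between members within a library do not depend on how libraries are scaled to each other. In these libraries the receptor chains stood in different proportions in GM and DM. OSMR stood at 0.853, 0.873 and 0.938 of IL6ST in the GM libraries and at 0.443, 0.446 and 0.485 in the DM libraries, a 1.94-fold lower geometric mean. OSMR exceeded LIFR 9.43- to 10.2-fold in GM and 5.67- to 6.45-fold in DM. LIFR relative to IL6ST ranged from 0.085 to 0.093 in GM and from 0.075 to 0.079 in DM. All 3 ratios lay lower in every DM library than in any GM library. OSMR over IL6ST is the product of the other ratios, so the 3 are not independent. Among single genes 54.1% had groups that did not overlap, and the share over pairs of genes was not computed. SOCS3 relative to SOCS2 ranged from 1.25 to 1.46 in GM and from 2.86 to 3.33 in DM, a 2.28-fold higher geometric mean. The exact two-sided permutation test gave p = 0.1 for each of these 4 ratios, the smallest p that 3 against 3 libraries allow, and 0.15 after Benjamini-Hochberg adjustment over the 6 ratios computed, so none can pass 0.05 in this design. JAK2 over JAK1 (0.232 to 0.254 in GM, 0.240 to 0.299 in DM, exact p = 0.2) and SOCS3 over STAT3 (exact p = 0.5) overlapped between the groups.

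**Figure D3:**
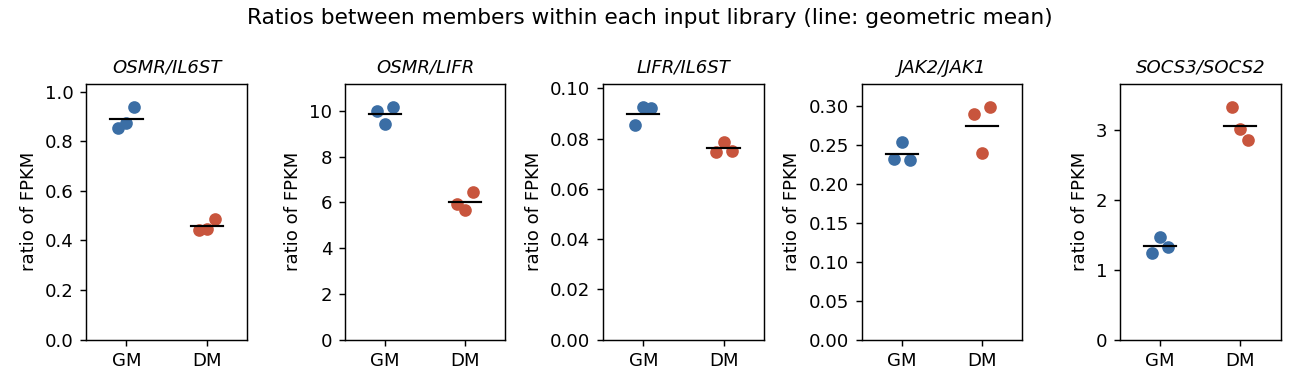
Ratio of the FPKM of 2 genes within each input library (y axes, from 0), 1 point per library, with the geometric mean of each group as a line. OSMR over IL6ST has a geometric mean of 0.888 in GM and 0.458 in DM and SOCS3 over SOCS2 of 1.34 and 3.06, without overlap of the groups, whereas JAK2 over JAK1 overlaps; SOCS3 over STAT3 is not drawn.

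The m6A lists gave each peak 1 fold enrichment of immunoprecipitated over input RNA, and there was 1 list per group, so peak values have no replicate error and carry no test. The 9 genes held 9 of the 19739 GM peaks and 14 of the 20790 DM peaks. In GM 6 of the 9 genes had a peak and in DM 8 of 9, beside 70.9% and 78.7% of all tested genes. The 6 had peaks in both lists, as had 68.6% of all tested genes, and JAK1 and STAT3 had peaks in DM only, as had 10.1%. OSMR, although at 12.6 FPKM in GM, had no peak in either list, as had 19.0% of all tested genes.

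**Figure D4:**
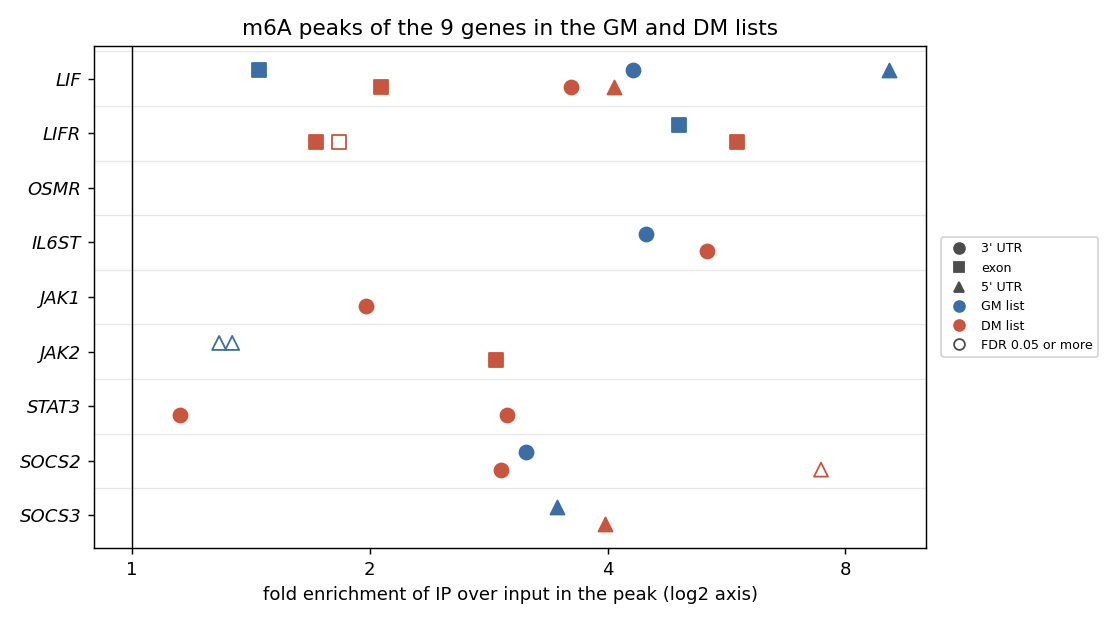
Fold enrichment of immunoprecipitated over input RNA (x axis, log2 scale) of each of the 23 peaks of the 9 genes, in the GM list and the DM list, with the symbol giving the annotated region and open symbols a false discovery rate of 0.05 or more. JAK1 and STAT3 have peaks in the DM list only, the GM peaks of JAK2 are open symbols, and OSMR has no peak.

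Exactly 1 GM peak overlapped exactly 1 DM peak in 5 genes, and none of these pairs differed by more than 1.5-fold, where 25.0% of the 10239 pairs of all genes did (14.2% higher and 10.8% lower in DM). In IL6ST the enrichment was 4.48 in GM and 5.34 in DM, in a peak that spans several exons and is annotated to the 3′UTR. LIFR had 4.92 and 5.83 at the 3′ end of its transcript. SOCS3 gave 3.45 and 3.97 in a peak that covered the whole 700 bases of its annotated transcript, so the label of 5′UTR carried by this peak does not locate it. SOCS2 had 3.15 and 2.93 and LIF 4.31 and 3.60, each in the 3′UTR. The higher value was thus the DM one for IL6ST, LIFR and SOCS3 and the GM one for SOCS2 and LIF. The ratios of DM to GM ran from 0.835 in LIF to 1.19 in IL6ST, and the IL6ST peak was also longer in DM (1230 against 900 exonic bases).

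At the 5′ end of LIF, separate GM peaks met a single DM peak. A GM peak of 387 bases in the 5′UTR (chr17:69266631-69267017) had an enrichment of 9.07, at the 90.7th percentile of the GM list. A weaker GM peak of 179 exonic bases in exon 1 of 3 had 1.45. The DM peak that overlapped both covered 565 exonic bases at 4.08. Where a stricter peak set or a 50% overlap made the stronger GM peak and this DM peak a pair, the DM value was 2.22-fold lower. The DM value is averaged over a longer stretch that reaches the weaker GM peak, so the values do not cover the same bases.

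Peaks without any overlap in the other list were mostly in DM. Of the 14 DM peaks of these genes 8 had no GM counterpart, beside 28.7% of all DM peaks. Of the 12 with a false discovery rate under 0.05 it was 6, beside 23.8%. STAT3 carried 2 such peaks in its 3′UTR. The 1 of 150 bases at the very end of the transcript (chr19:42417949-42418098) had an enrichment of 2.98, and the other, of 209 bases, had 1.15. JAK1 had a single peak in its last 180 annotated bases (1.98, chr3:80583827-80584006). JAK2 had a peak of 627 exonic bases over 5 exon blocks down to the last base of its transcript (2.89). In GM, JAK2 had instead 2 peaks of 60 bases near its start, at 1.34 and 1.29, neither with a false discovery rate under 0.05. Of all GM peaks 14.7% had no DM counterpart.

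The remaining DM peaks without a counterpart lay in LIF, LIFR and SOCS2. LIF had a peak in exon 3 at 2.07, LIFR had short peaks of 60 and 61 exonic bases from exon 17 on at 1.71 and 1.83, and SOCS2 had a 5′UTR peak at 7.45. The false discovery rate was over 0.05 for the LIFR peak at 1.83 and for the SOCS2 peak. In the whole lists, peaks that reach the last base of their transcript made up 25.6% in GM and 34.3% in DM, and in these genes 3 of 9 and 6 of 14. Whether a peak missing from a list was absent or only missed the caller's threshold cannot be told apart.

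Among other ligands and co-receptors of the gp130 family, 7 of 15 listed genes were tested, and 2 rose and 3 fell, beside 16.1% and 26.7% of all tested genes (median log2 fold change 0.08, against −0.05). IL6, the ligand that names the family, fell from 2.91, 2.76 and 2.42 FPKM in GM to 0.345, 0.474 and 0.863 in DM. No library of the groups overlapped (4.81-fold lower mean, log2 fold change −1.26 ± 0.13, SE, limma adjusted p = 1.2e-04).

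CTF1, which encodes cardiotrophin-1, a ligand of the LIFR and gp130 pair, rose from 1.5, 0.776 and 1.13 FPKM to 3.17, 3.64 and 2.89 (2.86-fold, log2 fold change 1.0 ± 0.13, SE, limma adjusted p = 4.7e-04). IL27RA, which pairs with gp130 for interleukin-27, rose from 15.7 ± 0.243 to 27.6 ± 0.689 FPKM (1.76-fold, limma adjusted p = 7.6e-06). IL11RA, outside the naming rule and named after its values were seen, fell too (10.2 ± 0.679 to 7.46 ± 0.503, limma adjusted p = 0.0021). IL6R, the ligand-binding chain for interleukin-6, was at 1.17 ± 0.130 and 1.28 ± 0.115 FPKM and CLCF1 at 2.59 ± 1.12 and 3.82 ± 0.235, and neither passed (limma adjusted p = 0.50 and 0.11), although CLCF1 passed without GM replicate 2 (0.031). Below the filter, CNTFR stood at 0.264 in GM and 0.0548 FPKM in DM and IL31RA at 0.541 and 0.137, without a test. The symbols IL11, OSM, EBI3 and LEPR matched no row and were not analysed here.

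**Figure D5:**
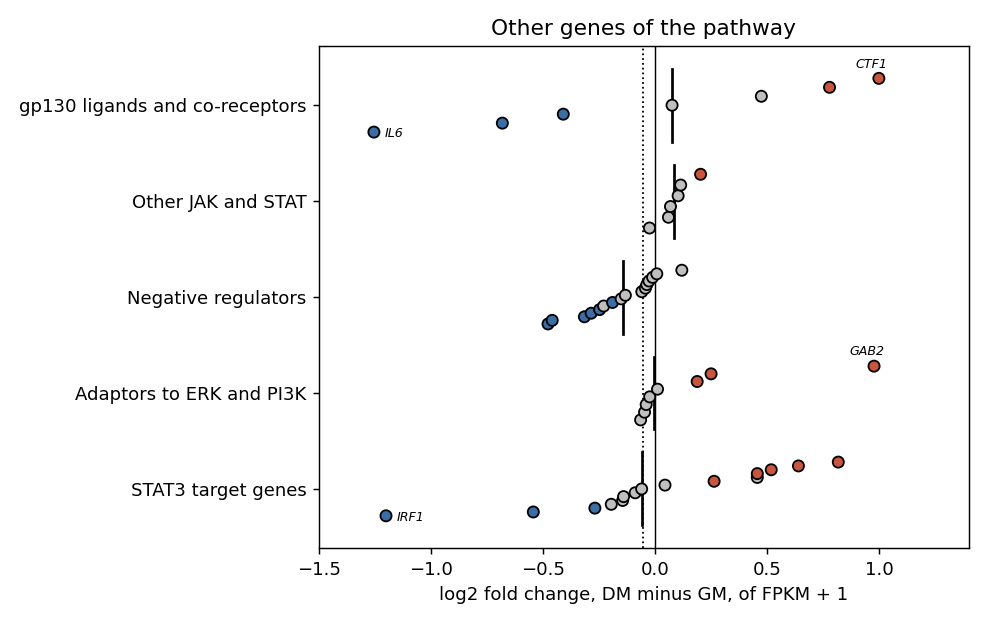
Log2 fold change of FPKM + 1 from GM to DM (x axis) for the tested genes of 5 pathway lists, 1 point per gene, coloured when the adjusted p was under 0.05 (red higher, blue lower in DM), with the list's median as a bar and the median of all tested genes dotted. IL6 and IRF1 are farthest to the left, at −1.26 and −1.2, and CTF1 and GAB2 farthest to the right, at 1.0 and 0.98.

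The other Janus kinases and STAT factors moved little. Of 6 tested, STAT2, a factor of the interferon response, was the 1 gene called (10.98 ± 0.443 to 12.8 ± 0.414 FPKM, limma adjusted p = 0.019). The share called stands beside 42.8% of all tested genes, and the share that rose beside 16.1%. The STAT2 call was lost without DM replicate 1 (limma adjusted p = 0.063), DM replicate 3 (0.071) or GM replicate 1 (0.050). It was also lost with the replicate block (0.067). TPM gave 4 calls, all higher. Of all tested genes TPM called 40.9%, and 59.5% of its calls were higher.

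Of 16 negative regulators beside SOCS2 and SOCS3, 6 fell, none rose and 10 did not pass, with a median log2 fold change of −0.14. The share called, 6 of 16, stands beside 42.8% of all tested genes, and the share that fell beside 26.7%. None passed 1.5-fold on the scale of FPKM + 1, although the mean FPKM of CISH was 1.89-fold lower in DM. The 6, named after their values were seen, were CISH, the SOCS family member closest to SOCS2, at −0.48, the adaptor SH2B3 at −0.46, SOCS5 at −0.32, the phosphatases PTPN1 at −0.29 and PTPN2 at −0.25, and the STAT inhibitor PIAS4 at −0.19. CISH fell from 1.5 ± 0.266 to 0.796 ± 0.189 FPKM (limma adjusted p = 0.0096). Scaling mattered here, since TPM kept only CISH and SH2B3 as lower and called PIAS3 higher. The PIAS4 call was lost when any library but GM replicate 3 was left out (limma adjusted p = 0.081 to 0.15), with size factors (0.12) and with the replicate block (0.098), and that of PTPN2 without DM replicate 3, GM replicate 1 or GM replicate 2 (0.052 to 0.053).

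In the list of adaptors to ERK and PI3K, 3 of 8 genes rose and none fell. These counts stand beside 16.1% and 26.7% of all tested genes and 42.8% called either way. The list also holds STAM and STAM2, whose link to ERK or PI3K was not tested, so the counts describe the list only. GAB2, a docking protein for PI3K and SHP2, rose from 6.80, 7.31 and 7.44 FPKM to 14.6, 17.4 and 13.5 (2.11-fold, log2 fold change 0.98 ± 0.09, SE, limma adjusted p = 6.9e-05). STAM and GAB1, named after their values were seen, rose by less, with log2 fold changes of 0.25 and 0.19. The GAB1 call was lost when any library other than GM replicate 2 was left out (limma adjusted p = 0.060 to 0.098) and with the replicate block (0.074). PTPN11, which encodes SHP2, was at 67.8 ± 1.02 and 64.8 ± 1.32 FPKM and was not called (limma adjusted p = 0.28).

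Known target genes of STAT3 moved in both directions. Of 15 tested, 5 rose and 3 fell, beside 16.1% and 26.7% of all tested genes, with a median log2 fold change of −0.06. BCL6, a transcriptional repressor, rose from 12.7 ± 0.509 to 23.2 ± 1.5 FPKM (1.83-fold, limma adjusted p = 2.6e-05). HIF1A, the hypoxia-inducible factor, rose from 71.3 ± 8.56 to 111 ± 0.414 (1.56-fold, limma adjusted p = 4.5e-04). IRF1, better known as an interferon target, fell from 14.2 ± 0.912 to 5.62 ± 0.904 (2.52-fold, limma adjusted p = 4.6e-05). The smaller calls, named after their values were seen, were rises of CEBPD, MCL1 and BCL2L1 and falls of CCND1 and BCL3. The BCL3 call was lost without DM replicate 1 (limma adjusted p = 0.11), DM replicate 3 (0.085), GM replicate 2 (0.084) or GM replicate 3 (0.074), and also with size factors (0.093) or TPM (0.16). JUNB, an early target of gp130, was at 81.9 ± 3.13 and 77.1 ± 6.19 FPKM, and MYC at 35.8 ± 2.40 and 32.5 ± 4.37, neither called (limma adjusted p = 0.32 and 0.29). FOS was not called either (12.1 ± 2.29 and 17.3 ± 4.68, limma adjusted p = 0.086), but was without DM replicate 3 (0.015) or GM replicate 1 (0.049), with the replicate block (0.014) or with TPM (0.042), and PIM1 was called lower without DM replicate 2 (0.031).

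Peaks of the listed genes that passed the expression filter were compared from the same lists, again without a test. Of the pairs of all genes 25.0% differed by more than 1.5-fold, 14.2% higher and 10.8% lower in DM. Such pairs were 0 of 5 for the ligands and co-receptors and 1 of 3, lower, for the JAK and STAT list. They were 2 of 18, both lower, for the negative regulators and 2 of 10, both higher, for the adaptors. Among 15 for the STAT3 targets, 2 were higher and 2 lower. Below the filter, IL27 and JAK3 had 1 pair each, both over 1.5-fold higher in DM and with a longer DM peak. The pairs given here were chosen after their values were seen. Among the genes called for expression, GAB2 had 10 in GM and 15.8 in DM in a 3′UTR peak of 1558 bases in both lists. An exonic BCL6 peak of 987 bases in both had 4.65 and 2.64, while the BCL6 3′UTR peak had 6.78 and 7.33. IRF1 had 5.44 and 8.52 in a 3′UTR peak of 150 bases in GM and 90 in DM, while its longer 3′UTR peak had 2.63 and 2.52. SH2B3 had 5.26 and 1.45 in an exonic peak, which was shorter in DM (211 against 658 bases). STAT5A, the neighbour of STAT3, had 6.53 and 2.46 in its 3′UTR.

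Among the genes whose level followed STAT3 most closely over the 6 inputs were SYNE3 (Pearson r = 0.998), SPATS2L (0.997), NFATC3 (0.995) and MIA3 (0.995). With 6 libraries in 2 groups, such values describe mainly the step between the groups, and 24 of 12301 other genes reached an r of at least 0.99.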

How the data were processed

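Input and m6A libraries of 3 GM and 3 DM cultures were deposited as 1 expression table and 2 peak lists. The authors trimmed reads with Trimmomatic, aligned them with HISAT2 to ARS-UCD1.2 and computed FPKM per gene with StringTie. The deposited fold enrichment is a ratio of IP over input that the authors obtained with exomePeak, in 1 list per group. How the 3 libraries were combined is not given in the sources used here. The deposited score used here is log10 of the peak's false discovery rate. Depth per library was not taken from the deposited files, so precision rests on 3 libraries per group. In the study's read counts, the immunoprecipitation library of GM replicate 1 had the fewest clean reads. Whether depth bears on the peaks found in DM only was not tested.

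Expression was tested with limma 3.58.1 in R 4.3.3 on log2(FPKM + 1), with a variance trend. Genes averaging under 0.5 FPKM were left out, and p-values were adjusted by Benjamini-Hochberg. Peaks were paired in Python 3.11.15 by an overlap of at least 1 exonic base on 1 strand, and ratios tested with exact permutation tests in scipy 1.17.1. The code was tested on simulated data. Members, lists and alternatives were chosen with earlier results of these data known. From each list, genes called with a fold over 1.5 were named, at most 4 in each direction, and for likeness the 5 genes of highest r with STAT3. Alternatives covered the pseudocount, filter, scaling, replicate block, variance trend, single libraries, peak set and overlap. Some genes that this rule names are not reported here. Motifs and sequences were not analysed here.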

Additional observations from a re-analysis of the deposited data

How the results depend on the processing

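The calls of IL6ST, STAT3, OSMR and SOCS2 and the directions of all 9 genes held in each of the 13 alternative fits, and no value changed sign. TPM moved the all-gene median of log2 fold changes from −0.05 to 0.06 and the share of higher genes among the calls from 37.6% to 59.5%; size factors gave 49.2%. A 1.5-fold threshold on top of the adjusted p left 1 of the 9 genes, 1448 of 5268 genes in all, 0 of the JAK and STAT list, 0 of the negative regulators, 1 adaptor and 3 STAT3 targets. In the JAK and STAT list, size factors gave 2 calls, TPM 4, and single libraries left out 0 to 1. TPM gave 3 calls among the negative regulators. The labels tie same-numbered cultures by a number only. Their deviations from the group means correlated at −0.21 to −0.08, and no library correlated best with its own number. Deviations from a mean of 3 libraries cancel within each group, so these values cannot show whether such cultures shared more than a number. The replicate block gave 0 calls in the JAK and STAT list and 4513 over all genes. For peaks, fold enrichment of at least 2 gave 1 changed pair of these genes and an overlap of 50% also 1, both LIF. A 2-fold limit left 1029 of 2562 changed pairs of all genes, and centring on the median pair turned the split of 1458 higher and 1104 lower into 1193 and 1317. The causes were not tested. Low FPKM limits LIF, LIFR and SOCS2, whose fold changes shrink with the added 1.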
